A study of Homo sapiens with 12 samples.

Results

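Members of the machinery that carries cells through mitosis were followed in 2 cancer cell lines treated with an extract of a marine alga. They are 39 genes chosen by name, from 57736 genes in the deposited tables, for known roles in entering mitosis, building the spindle and separating chromosomes and daughter cells. They were picked by role and not by a limit on their values, though with earlier results of these data known. HepG2 is a line from a human liver carcinoma and Ls174 a line from a human colon carcinoma, both labelled wild type. Each was grown for 24 h either without treatment or with HME, the methanol extract of the red seaweed Hypnea musciformis, at 0.7 mg/ml per the labels. The study's methods name a slightly higher concentration, chosen near the IC50 for growth in these lines. There were 3 libraries in each of the 4 groups (HepG2 control, HepG2 HME, Ls174 control and Ls174 HME), 12 in all, made with a kit that reads the 3′ ends of messenger RNA. The study calls the libraries of a group biological replicates, and where they were not separate cultures the p-values measure only the spread between libraries.

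Mitosis is started by cyclin A and cyclin B bound to the kinase CDK1. CDC25 phosphatases switch CDK1 on, and WEE1 holds it back. Polo-like and Aurora kinases then build the spindle, the spindle assembly checkpoint waits until all chromosomes are attached, and the anaphase-promoting complex (APC/C) destroys cyclin B and securin so that the sister chromatids can part. Most of these genes are transcribed late in the cell cycle, through promoters that carry CCAAT boxes and the cell cycle homology region (CHR), and many are held off in resting cells by the DREAM complex. The levels of many of them therefore rise and fall with the share of dividing cells, and in bulk RNA fewer mitotic cells and less RNA per cell cannot be told apart.

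RefSeq promoter windows of GRCh38.p14, running from 250 bases before to 50 bases after a start site, were found for 32 of the 39 members, with 50 windows in all. They were searched on both strands for the CHR letters TTTGAA or TTCGAA, for CCAAT and for the E2F letters TTCGCGC. The CHR letters lay in at least 1 window of 21 of the 32 members, 65.6%, against 19.5% of 27305 genes. CCAAT was found in 28 members, 87.5%, against 39.7% of all genes, and the E2F letters in 3, 9.38% against 2.75%. Counted by window, the CHR letters were in 24 of 50 windows, or 48%, and in 16.4% of all 35116 windows. These are matches of letters and no factor was measured on them. The 120 bases before the start site are printed below for the members called with HME in either line that hold the CHR letters there, and for CDK1, the kinase at the centre of the pathway. Capitals mark the CHR and CCAAT letters in either orientation, and the coordinates are those of GRCh38.p14, a later build than that of the count tables.

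PLK1, chr16:23678769-23678888, plus strand: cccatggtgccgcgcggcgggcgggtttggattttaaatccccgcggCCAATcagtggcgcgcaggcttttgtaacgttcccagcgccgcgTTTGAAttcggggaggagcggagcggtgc
CDC25B, chr20:3796190-3796309, plus strand: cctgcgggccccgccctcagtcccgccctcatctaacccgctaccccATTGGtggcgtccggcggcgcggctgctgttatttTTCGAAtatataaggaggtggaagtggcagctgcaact
MKI67, chr10:128126424-128126543, minus strand: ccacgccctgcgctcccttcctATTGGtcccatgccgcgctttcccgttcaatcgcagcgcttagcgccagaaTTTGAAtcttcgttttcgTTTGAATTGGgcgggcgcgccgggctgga
KIF11, chr10:92593010-92593129, plus strand: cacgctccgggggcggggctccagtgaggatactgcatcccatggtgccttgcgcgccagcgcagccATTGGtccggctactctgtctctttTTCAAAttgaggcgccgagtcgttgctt
CCNB2, chr15:59105026-59105145, plus strand: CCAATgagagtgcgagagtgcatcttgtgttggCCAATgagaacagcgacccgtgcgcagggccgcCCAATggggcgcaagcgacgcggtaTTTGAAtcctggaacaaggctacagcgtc
CDC20, chr1:43358861-43358980, plus strand: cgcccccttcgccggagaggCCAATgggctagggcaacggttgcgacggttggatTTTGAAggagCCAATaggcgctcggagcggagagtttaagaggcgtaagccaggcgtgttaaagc
PRC1, chr15:90994536-90994655, minus strand: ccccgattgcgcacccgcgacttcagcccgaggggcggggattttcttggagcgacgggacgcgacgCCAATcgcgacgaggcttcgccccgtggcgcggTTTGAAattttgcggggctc
CDK1, chr10:60778358-60778477, plus strand: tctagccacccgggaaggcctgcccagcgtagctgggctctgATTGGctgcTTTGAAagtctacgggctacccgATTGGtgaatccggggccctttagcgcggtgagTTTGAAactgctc

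In PLK1 the CHR letters began 29 bases before the start, as they did in CCNB2, in KIF11 28 bases before, and in MKI67 both 47 and 29 bases before, where the second match runs into a CCAAT box read on the other strand. CDC25B has 4 start sites in RefSeq, and the CHR letters stood in the window of 1 of them, 38 bases before the start. CDC20 held them at 65 bases, PRC1 at 20 bases, and CDK1 at 69 and 13 bases before the start of its printed window. The CHR letters were not found in the windows of CCNA2, NEK2, KIF2C, CENPE, ANAPC15 or PTTG1, which says only that these letters are not there.

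The libraries held 1790841 to 3656662 counts, of which 3229 to 14844 fell on the members. Values are given as CPM, counts scaled to a common library size, after TMM scaling of all 12 libraries, and 3 counts correspond to 0.763 to 1.86 CPM. All 39 members were counted mainly in a region that overlaps their own 3′ untranslated region, with a median width of 950 bases. For 4 members that region also holds an exon of another gene on the same strand, NPB for ANAPC11, the read-through gene BUB1B-PAK6 for BUB1B, ENSG00000285920 for NUSAP1 and ENSG00000284946 for PRC1, whose reads cannot be told apart from the member's. For 8 members (ANAPC11, ANAPC15, CCNA2, CDC20, FOXM1, KIF20A, PLK1 and PRC1) it holds an exon of another gene on the opposite strand, and since the sources used here do not state whether counting used the strand, reads of the partner cannot be told apart. The liver markers ALB and AFP averaged 5431 and 4294 CPM in HepG2 controls and at most 14.9 CPM in any Ls174 group. Summed over 8 liver markers, Ls174 control 3 held 126.5 CPM, Ls174 HME 1 57.6 CPM, HME 3 9.47 CPM and the other Ls174 libraries at most 0.309 CPM. Without control 3, 4 of 39 members were called lower with HME in Ls174, against 9.21% of all genes. Without HME 1 it was also 4, against 5.99%. Of 8 colon markers, CDX1, CDX2, LGALS4 and TFF3 averaged 141, 72.1, 67.3 and 73.2 CPM in Ls174 controls against 0.268, 0.993, 3.90 and 16.1 CPM in HepG2 controls, whereas VIL1 was higher in HepG2 (135.5 against 62.5 CPM) and MUC2, CEACAM5 and KRT20 were at 2.90 CPM or less in the controls of both lines. Of 4 blood markers, PTPRC and CD3E had no count in any library, HBB had 2 counts, in Ls174 HME, and CD68 averaged 12.35 CPM in HepG2 controls, 10.1 CPM in HepG2 HME and at most 1.26 CPM in Ls174. The blood markers summed to 21.7 CPM in HepG2 control 2 and 6.15 to 14.3 CPM in the other HepG2 libraries. The part of these markers in the results was not tested.

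One control library of each line stood apart in the members. The study, too, reports 1 control replicate apart from the rest in both lines, without naming it. In HepG2 control 2, the library with the fewest counts among the HepG2 controls (1874122), 21 of the 39 members lay under 50% of the mean of the other 2 controls and 9 lay above 100%. The low ones included UBE2C, the ubiquitin-conjugating enzyme of the APC/C, at 0.619 against 24.8 CPM, and CDK1 at 11.2 against 101 and 71.5 CPM. Ls174 control 1, again the control with the fewest counts (1977996), had 14 members under 50% and 12 above 100%. There ESPL1, the protease separase, and KIF20A, a motor of cytokinesis, had no count, against 24.1 and 17.1 CPM and 14.5 and 8.65 CPM in the other controls. There were 12 members under 50% in both libraries. Across the 39 members the log2 differences of these libraries from their fellow controls ran together between the lines (Pearson r 0.58, Spearman rho 0.62, over genes, which do not replicate each other), and over 9871 genes tested in both lines r was 0.43. The median log2 difference of the members was -1.1 in HepG2 control 2 and -0.625 in Ls174 control 1. Over the 9871 genes it was -0.183 and -0.107. The share of all genes under 50% was not computed. All these values are a description with no test.

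**Figure D1:**
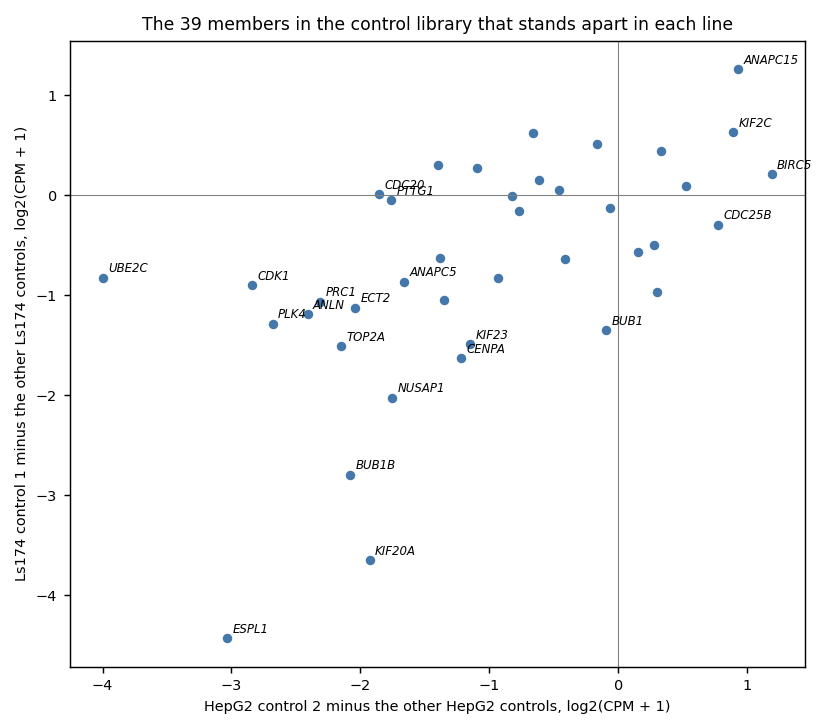
Each point is 1 of the 39 members. The x axis gives log2(CPM + 1) in HepG2 control 2 minus that of the mean of the other HepG2 controls, the y axis the same for Ls174 control 1. Most points lie in the lower left, with ESPL1, KIF20A and BUB1B lowest on the y axis and UBE2C lowest on the x axis, while ANAPC15 and KIF2C lie above 0 on both.

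**Figure D2:**
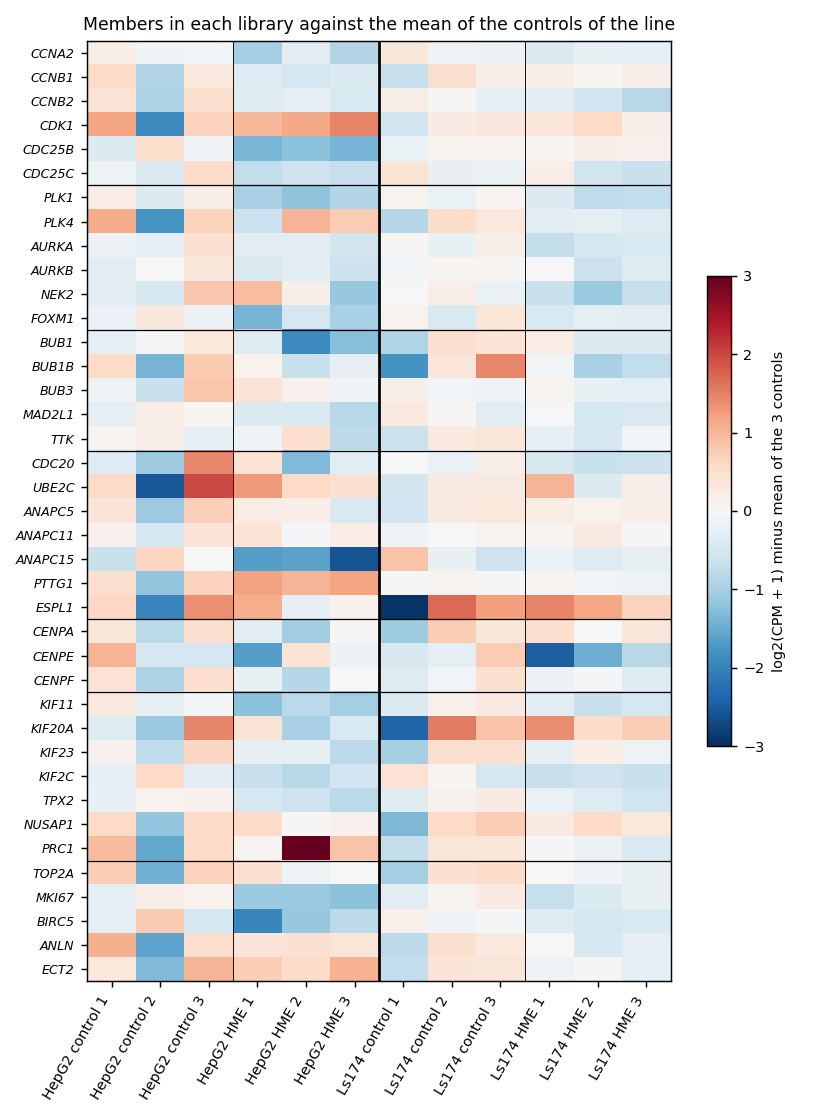
Rows are the 39 members grouped by role and columns the 12 libraries. Colour gives log2(CPM + 1) minus the mean of the 3 controls of that line, red above and blue below, cut at 3 in either direction. HepG2 control 2 and Ls174 control 1 are blue in many rows, and PRC1 in HepG2 HME 2 is the darkest red cell.

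In HepG2 more of the mitotic genes were called lower with HME than higher. Of 38 members with enough counts to test (CENPE, with 25 control and 12 HME counts, was not tested), 9 were called lower, 23.7%, where 10.9% of all 11343 genes tested were, and 2 were called higher, where 11.3% of all genes were. Called means past both limits of the study's methods, 0.05 for p before adjustment and 0.58 in either direction for the log2 fold change, here by edgeR's quasi-likelihood test. None had a Benjamini-Hochberg adjusted p under 0.05 by edgeR, at a background of 2.77% of all genes higher and 0.538% lower. An unadjusted p under 0.05 was found in 11 of the 38 members and in 2517 of all 11343 genes. DESeq2 placed 4 members (CDC25B, PLK1, ANAPC15 and MKI67) under 0.05 after adjustment, given here without a share over all genes. The fitted value lay under 0 in 28 of 38 members, 73.7%, against 52.3% of all genes, with a median log2 fold change of -0.50 against -0.04. In 14 members every HME library lay below every control, 36.8% against 15.3% of all genes, and in 1, PTTG1, every HME library lay above, against 15.5%.

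The phosphatase that opens the way to mitosis showed one of the clearest differences. CDC25B (ENSG00000101224, chromosome 20) measured 106, 204 and 132 CPM in the controls and 54.3, 59.7 and 53.7 CPM with HME. Every treated library lay below every control, and the treated libraries varied little. The log2 fold change was -1.40 ± 0.35 (SE), with an adjusted p of 0.0625 by edgeR. CDC25C, the phosphatase acting on CDK1 at the onset of mitosis, gave 13.6, 11.2 and 22.9 CPM in the controls and 8.65, 9.48 and 8.96 CPM with HME. Its groups did not overlap either, but at -0.80 ± 0.38 it was not called.

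The cyclins themselves gave a weaker picture. CCNA2, cyclin A, which drives both DNA synthesis and the entry into mitosis, was at 109, 88.5 and 89.96 CPM in the controls and at 47.6, 75.2 and 51.3 CPM with HME, and was called lower at -0.71 ± 0.31 (adjusted p = 0.215). That call held in 8 of the 16 alternative analyses, and was lost without control 1, control 3, HME 1 or HME 3. CCNB1, cyclin B1, measured 100.2, 35.3 and 82.7 CPM in the controls and 50.3, 46.7 and 50.1 CPM with HME. The 3 treated libraries were almost level, and control 2 lay below all of them, so that the groups overlapped and the fold change of -0.54 ± 0.37 was not called. CCNB2, the other B-type cyclin of mitosis, also had its lowest library in control 2, at 81.8, 31.6 and 87.5 CPM in the controls and 47.2, 50.6 and 44.2 CPM with HME (-0.48 ± 0.38). Without control 2 both were called lower, CCNB1 at -0.83 ± 0.22 and CCNB2 at -0.77 ± 0.22. CDK1, their kinase partner, was measured at 101, 11.2 and 71.5 CPM in the controls and 86.5, 97.3 and 122 CPM with HME. Its value of 0.77 ± 0.59 rested on control 2, and without it the value was 0.31 ± 0.26, not called in either fit.

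Among the kinases, PLK1 (ENSG00000166851, chromosome 16), the polo-like kinase needed for centrosome maturation, spindle assembly and cytokinesis, was at 132, 84.8 and 130 CPM in the controls and at 57.0, 48.8 and 60.9 CPM with HME. Treated libraries held 48.2% of the control mean and did not overlap with it. The log2 fold change was -1.04 ± 0.30 (adjusted p = 0.0924), past the limits in all 16 alternatives. FOXM1, the transcription factor that turns on much of this programme, measured 41.7, 60.1 and 41.4 CPM in the controls and 17.3, 32.3 and 23.3 CPM with HME, and was called lower at -0.96 ± 0.36 (adjusted p = 0.16), a call lost without HME 1 or HME 3. AURKA, the Aurora kinase of centrosomes and spindle poles, stood at 112, 104 and 176 CPM in the controls and at 101, 101 and 86.0 CPM with HME. The groups of AURKA did not overlap by a narrow margin, and with -0.43 ± 0.31 it was not called. AURKB, the catalytic subunit of the chromosomal passenger complex, was at -0.47 ± 0.31. NEK2, a kinase of centrosome separation, was at 4.81, 4.33 and 12.05 CPM in the controls and 12.98, 7.38 and 2.39 CPM with HME, a spread within each group wider than the difference of 0.15 ± 0.62. PLK4, which starts centriole duplication, was at 0.04 ± 0.86.

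Of the 5 checkpoint genes only BUB1, a kinase that recruits the checkpoint to kinetochores, was called. It measured 14.2, 16.7 and 21.7 CPM in the controls and 13.0, 3.86 and 6.57 CPM with HME, or 134 against 55 counts in all. The lowest control lay just above the highest treated library, and the fold change was -1.14 ± 0.47 (adjusted p = 0.195), past the limits no longer without control 3, HME 2 or HME 3. MAD2L1, which binds and holds back CDC20, was at 47.8, 68.1 and 60.2 CPM in the controls and 43.6, 42.8 and 32.2 CPM with HME. Its groups did not overlap, but at -0.56 ± 0.31 it was not called. BUB1B, BUB3 and TTK lay between -0.52 and 0.05.

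The APC/C and its partners went different ways. ANAPC15, the small subunit through which the checkpoint complex is released from the APC/C, gave 9.62, 25.4 and 16.1 CPM in the controls and 4.33, 4.57 and 1.79 CPM with HME. The treated libraries held 27 counts in all against 117 in the controls, and the log2 fold change of -2.17 ± 0.54 had the lowest adjusted p of the 38 members, 0.059. LRTOMT and TOMT have exons on the other strand in its counted region. PTTG1, securin, which blocks separase until anaphase, measured 121, 37.8 and 140 CPM in the controls and 200.2, 177 and 196 CPM with HME. Every treated library lay above every control, and PTTG1 was called higher at 0.97 ± 0.43 (adjusted p = 0.219). The call was lost with scaling to library size alone, with upper-quartile scaling, and without control 1 or any 1 HME library, and without control 2 the value was 0.62 ± 0.22. CDC20, the activator that brings substrates to the APC/C, was scattered, at 14.4, 8.67 and 53.4 CPM in the controls and 25.6, 7.02 and 14.9 CPM with HME. It and UBE2C, ANAPC5, ANAPC11 and ESPL1 lay between -0.66 and 0.18 and were not called.

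Of the motors and spindle proteins, KIF11, the motor that pushes spindle poles apart, was at 17.9, 11.8 and 14.1 CPM in the controls and at 5.505, 7.73 and 6.57 CPM with HME. The groups did not overlap, and it was called lower at -1.13 ± 0.38 (adjusted p = 0.124), though not without control 1 or HME 1. KIF2C, a kinesin that takes microtubules apart at centromeres, measured 55.3, 99.7 and 51.4 CPM in the controls and 41.3, 36.5 and 44.2 CPM with HME. Like TPX2, which activates AURKA on the spindle, it did not overlap between the groups but missed the limits, at -0.76 ± 0.36 against -0.66 ± 0.29 for TPX2. PRC1, which bundles microtubules in the middle of the anaphase spindle, was called higher at 2.05 ± 0.89 (adjusted p = 0.214) on the strength of 1 library. It measured 74.3, 12.4 and 56.6 CPM in the controls and 40.1, 474 and 69.2 CPM with HME. HME 2 held 1350 counts of it, and the groups overlapped. Without HME 2 the value was 0.24, and the largest p over the libraries left out was 0.714 by edgeR. The same library stood apart in a set of fibroblast markers, where COL1A1, COL1A2, COL3A1 and DCN summed to 954.5 CPM against 3.54 and 6.57 CPM in the other HME libraries. COL1A1 and COL1A2 made up nearly all of it, while COL3A1 had 6 counts and DCN none over the 3 treated libraries. Their part in the PRC1 value was not tested. KIF20A, KIF23 and NUSAP1 lay between -0.70 and 0.09.

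MKI67, the coat protein of mitotic chromosomes whose product Ki-67 marks dividing cells in pathology, was at 108, 153 and 144 CPM in the controls and at 61.4, 61.5 and 56.1 CPM with HME. The treated libraries lay close together at 44.1% of the control mean and well below each control. The fold change of -1.17 ± 0.30 (adjusted p = 0.0676) stayed past the limits in all 16 alternatives. BIRC5, survivin, a subunit of the chromosomal passenger complex, measured 214, 448 and 179 CPM in the controls and 66.1, 117 and 150 CPM with HME. The highest value was that of control 2, and the fold change was -1.35 ± 0.47 (adjusted p = 0.138), or -0.75 ± 0.33 without that library. The call was lost without HME 1. TOP2A, the topoisomerase that untangles sister chromatids, another usual marker of dividing cells, was at 214, 46.4 and 205 CPM in the controls and at 177, 114 and 127 CPM with HME. With control 2 far below the rest, its value was -0.12 ± 0.49. ANLN and ECT2, which organise the cleavage furrow, were at 0.04 ± 0.53 and 0.53 ± 0.50 and not called. For ECT2 the treated libraries, at 23.99, 21.1 and 29.9 CPM, lay within or just above the control range of 17.6, 4.95 and 29.3 CPM.

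The calls in HepG2 moved with control 2. Of the 21 members that control 2 held at under 50% of the other controls, CENPE was not tested, none was called lower and the 2 called higher, PTTG1 and PRC1, were both among them. Of the 18 others, 9 were called lower. Control 2 enters the fold changes itself, and a low value there raises them, so this split cannot test its part. Left out, control 2 gave 14 members lower, against 10.1% of all genes tested in that fit, and 1 higher, PTTG1, against 14.1%. CDC25B, PLK1 and MKI67 then had adjusted p of 0.0276, 0.0145 and 0.0306 by edgeR, 3 of 38 members, all lower. Of all genes 7.74% passed that limit in either direction, and the share lower alone was not computed. The members called lower in that fit and not in the fit of all libraries were CCNB1, CCNB2, CDC25C, BUB1B and CENPF. The 4 members CDC25B, PLK1, MKI67 and ANAPC15 were called lower in every alternative in which they could be tested.

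**Figure D3:**
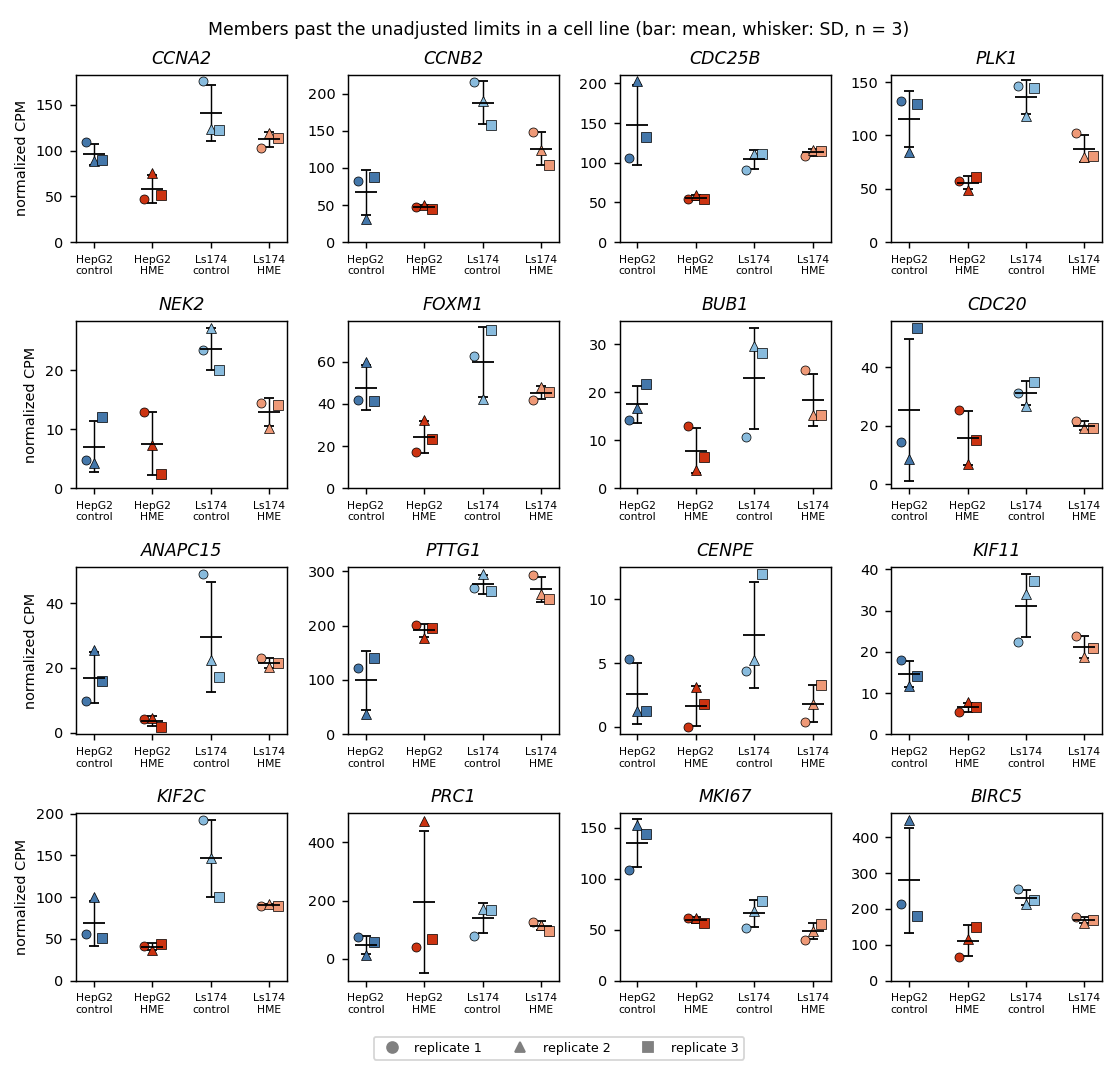
Normalized CPM in each library for the 16 members past the unadjusted limits in at least 1 line. Points are libraries, with a shape for each replicate number, bars are means and whiskers SD (n = 3). In HepG2 the treated points of CDC25B, PLK1, MKI67 and KIF11 lie close together below all controls, while the PRC1 mean with HME rests on 1 library at 474 CPM.

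In Ls174, too, more of the mitotic genes were called lower with HME than higher. All 39 members were tested, 6 were called lower, 15.4% against 7.85% of 11319 genes, and none was called higher by edgeR, against 4.11%. No adjusted p was under 0.05 by edgeR or by DESeq2 (background by edgeR 0.318% higher and 0.866% lower). By edgeR 8 members had an unadjusted p under 0.05, and so did 1534 of all 11319 genes. The fitted value was under 0 in 29 members, 74.4% against 50.1% of all genes, with a median of -0.34 against 0.00. Every HME library lay below every control in 9 members, 23.1% against 12.2%, and above in none, against 11.6%.

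PLK1 was the only member called lower in both lines. In Ls174 it measured 146, 118 and 144 CPM in the controls and 102, 79.9 and 80.7 CPM with HME. The groups did not overlap and the fold change was -0.64 ± 0.20 (adjusted p = 0.217), which missed the limits without control 1, HME 2 or HME 3. NEK2 was at 23.5, 27.1 and 20.1 CPM in the controls and 14.5, 10.2 and 14.04 CPM with HME, with a fold change of -0.87 ± 0.28 (adjusted p = 0.222). CDC20, through which the APC/C recognises cyclin B and securin, was at 31.3, 26.8 and 35.1 CPM in the controls and at a narrow 21.7, 19.1 and 19.3 CPM with HME. It was called lower at -0.64 ± 0.23 (adjusted p = 0.292). CCNB2 measured 216, 190 and 158 CPM in the controls and 149, 125 and 104 CPM with HME, and at -0.59 ± 0.22 (adjusted p = 0.305) it lay just past the limit, a call kept in 7 of 16 alternatives. Every call in this line was lost without HME 2. That of NEK2 was also lost without control 2, and that of CDC20 without control 3 or HME 3. The CCNB2 call was also lost without control 1, control 2 or HME 3.

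KIF2C gave 193, 147 and 100.3 CPM in the Ls174 controls and 89.1, 91.5 and 89.2 CPM with HME. The treated libraries were nearly identical and the controls spread widely, for a fold change of -0.71 ± 0.26 (adjusted p = 0.291). CENPE, the kinetochore motor that brings chromosomes to the spindle middle, had the lowest fitted value of the members in this line, -1.99 ± 0.72 (adjusted p = 0.291). It rests on 73 control counts, at 4.40, 5.25 and 11.96 CPM, and 16 HME counts, at 0.362, 1.77 and 3.27 CPM, some at or under the level of 3 counts. The call was lost without control 3, HME 1 or HME 2, and that of KIF2C without any library but control 3. CCNA2 (-0.34 ± 0.22), AURKA (-0.57 ± 0.20) and BIRC5 (-0.46 ± 0.18) were not called although their groups did not overlap. These 3, with PLK1 and KIF2C, were the 5 members whose treated libraries lay below all controls in both lines. The share of all genes that did so was not computed.

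The main marker genes of division were not called in Ls174. MKI67 measured 51.8, 68.8 and 78.1 CPM in the controls and 40.2, 48.8 and 55.9 CPM with HME, at -0.46 ± 0.23. TOP2A gave 35.7, 101 and 106 CPM in the controls and 73.5, 66.8 and 62.0 CPM with HME, so that control 1 lay below all treated libraries and the other controls above them, at -0.27 ± 0.36. CCNB1 was at 71.4, 163 and 134 CPM in the controls and 131, 121 and 132 CPM with HME (0.05 ± 0.28). CDK1 was at 84.6, 153 and 164 CPM in the controls and 167, 195 and 147 CPM with HME (0.33 ± 0.27). For each of TOP2A, CCNB1 and CDK1 control 1 was the lowest of the 6 libraries. CDC25B, so different in HepG2, was at 90.4, 111 and 111 CPM in the controls and 108, 117 and 114 CPM with HME, or 0.11 ± 0.18.

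The members called in HepG2 alone were not called here. CCNA2 was at 176, 124 and 122 CPM in the Ls174 controls and 103, 120 and 114 CPM with HME, and BIRC5 at 254, 214 and 224 CPM in the controls and 177, 161 and 168 CPM with HME. Both were lower in every treated library by a small margin. FOXM1 gave 62.6, 42.3 and 75.1 CPM in the controls and 42.0, 48.1 and 45.7 CPM with HME, at -0.41 ± 0.25. BUB1 gave 10.8, 29.6 and 28.2 CPM and then 24.6, 15.2 and 15.3 CPM, with control 1 again the lowest of the 6 libraries. KIF11 was at 22.5, 33.9 and 37.1 CPM in the controls and 23.9, 18.7 and 20.9 CPM with HME (-0.57 ± 0.26), where 1 treated library lay above control 1. ANAPC15 was at 48.9, 22.5 and 17.1 CPM in the controls and 23.2, 20.1 and 21.6 CPM with HME, so that the treated libraries fell inside the control range (-0.44 ± 0.40). PTTG1, higher in HepG2, was at 269, 295 and 263 CPM in the controls and 292, 259 and 248 CPM with HME, at -0.06 ± 0.18. PRC1 was at 80.2, 171 and 166 CPM in the controls and 126, 116 and 96.3 CPM with HME, with no library that stood apart as in HepG2. AURKA, not called in either line, was at 74.3, 61.7 and 81.7 CPM in the controls and 43.8, 51.2 and 52.2 CPM with HME.

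Of the 14 members that control 1 held at under 50% of the other Ls174 controls, none was called. Control 1 likewise enters these fold changes, so this split is no test of its part. Without control 1, 11 members were called lower, against 9.23% of all genes tested in that fit, and 8 had an adjusted p under 0.05 by edgeR: BUB1B, CENPE, TOP2A, KIF11, MKI67, TPX2, PRC1 and NEK2. Of all genes 8.39% passed that limit in the same fit in either direction. All 8 members were lower, and the share of all genes lower alone was not computed. Of these BUB1B, the checkpoint kinase-like protein BubR1, stood at 19.1, 88.2 and 188 CPM in the controls and 64.8, 34.3 and 40.5 CPM with HME, with -1.09 ± 0.64 over all libraries and -1.57 ± 0.28 (adjusted p = 0.00211) without control 1. Only 3 of the 11 had been called with all libraries. In the other direction, no member was called without HME 2 and 2 were without HME 3, where 4.71% and 5.02% of all genes were called lower.

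**Figure D4:**
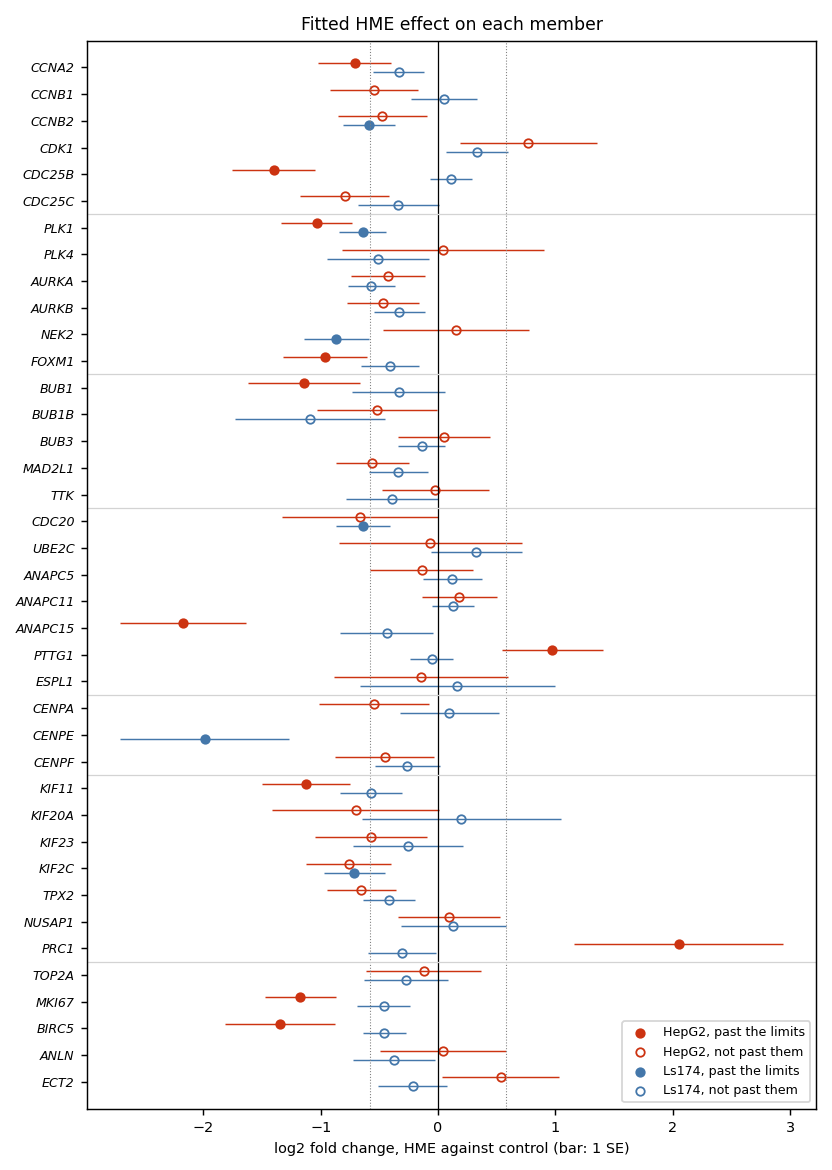
Fitted log2 fold change of HME against control for each member, in HepG2 (red) and Ls174 (blue), with 1 SE on either side; filled points are past the unadjusted limits, dotted lines mark 0.58 in either direction, and CENPE has no HepG2 value. Most points lie left of 0 in both lines, the red ones farther than the blue in CDC25B, ANAPC15 and MKI67, and PRC1 in HepG2 lies far to the right with a wide error.

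Whether the lines responded differently was tested with the interaction of line and treatment over all 12 libraries. The summed level of the 39 members went from 2571, 2173 and 3014 CPM to 2063, 2339 and 1928 CPM in HepG2, and from 3200, 3738 and 3777 CPM to 3288, 2912 and 2826 CPM in Ls174, groups that overlapped in both lines. Without PRC1, left out after its values were seen, the HepG2 sums were 2497, 2161 and 2957 CPM in the controls and 2023, 1864 and 1858 CPM with HME, which did not overlap. By member, 2 had a higher effect in Ls174 past the unadjusted limits, against 5.75% of 13040 genes, and 1 a lower effect, against 7.42%. No adjusted p was under 0.05 by edgeR, against 0.0307% of all genes higher and 0.613% lower. An unadjusted p under 0.05 was found in 3 members and in 1718 of 13040 genes. DESeq2 placed 1 member, CDC25B, past the adjusted limit. The HME effect on CDC25B was 1.51 ± 0.38 log2 units higher in Ls174 (adjusted p = 0.0932), and the call held in all 20 alternatives. For ANAPC15 it was 1.73 ± 0.67 higher (adjusted p = 0.276), lost without HepG2 control 2 or HME 3. For PRC1 the difference was -2.31 ± 1.05 (adjusted p = 0.361) and again rests on HepG2 HME 2, without which it was -0.45. The difference for PLK1 was 0.42 ± 0.36 and for MKI67 0.72 ± 0.36, and neither was called. Without the 2 controls that stood apart, CDC25B had an adjusted p of 0.0314 by edgeR for a difference of 1.14 ± 0.26. It was the 1 member past that limit, against 3.25% of all genes in either direction. In the 38 members tested in both lines, 21 had fitted values under 0 in both. Taken alone, 73.7% of the members tested in HepG2 and 74.4% in Ls174 were under 0. The share of all genes under 0 in both was not computed, so the count does not show agreement between the lines.

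Between the untreated lines more members were higher in Ls174 than lower. Of the 39, 10 were called higher in Ls174, 25.6% against 15.4% of 11907 genes, and 2 lower, against 19.5%, with a median log2 difference of 0.58 against -0.04. Past an adjusted p of 0.05 by edgeR were 4 higher, against 9.33% of all genes, and 1 lower, against 14.2%. ECT2, the exchange factor that switches on the contractile ring, was at 17.6, 4.95 and 29.3 CPM in HepG2 and 63.0, 140.1 and 137 CPM in Ls174, a difference of 2.67 ± 0.59 (adjusted p = 0.00984). MAD2L1 was at 47.8, 68.1 and 60.2 CPM in HepG2 and 203, 168 and 130 CPM in Ls174, a difference of 1.47 ± 0.34 (adjusted p = 0.0122). With HME, MAD2L1 in Ls174 was at 167, 114 and 119 CPM and ECT2 at 96.3, 109 and 88.5 CPM. For both genes the lowest Ls174 control lay above the highest HepG2 control. NEK2 differed by 1.70 ± 0.49 (adjusted p = 0.0345) and CCNB2 by 1.46 ± 0.41 (adjusted p = 0.0314), again with every Ls174 control above every HepG2 control. MKI67 went the other way, at -1.06 ± 0.33 (adjusted p = 0.0466), with every Ls174 control below every HepG2 control.

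Also called higher in Ls174 at the unadjusted limits were AURKB, BUB1B, PTTG1, KIF11, KIF2C and PRC1, between 1.01 and 2.15, and AURKA was called lower at -0.88 ± 0.34 (adjusted p = 0.095). AURKA and AURKB, paralogous kinases, thus had fitted differences of opposite sign. The AURKA call held in 8 of 15 alternatives and was lost with library-size and with upper-quartile scaling, and that of AURKB was lost without HepG2 control 1 or Ls174 control 2. The 2 controls that stood apart weigh on this comparison too. Without both, 17 members were called higher, against 22.9% of all genes, and 3 lower, against 26.8%. An adjusted p under 0.05 by edgeR was reached by 14 higher and 3 lower, 17 of 39 in all, about the share of all genes, 44%. Among those 3 was TOP2A, at -1.04 ± 0.21 (adjusted p = 0.0016), against -0.95 ± 0.60 with all libraries.

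**Figure D5:**
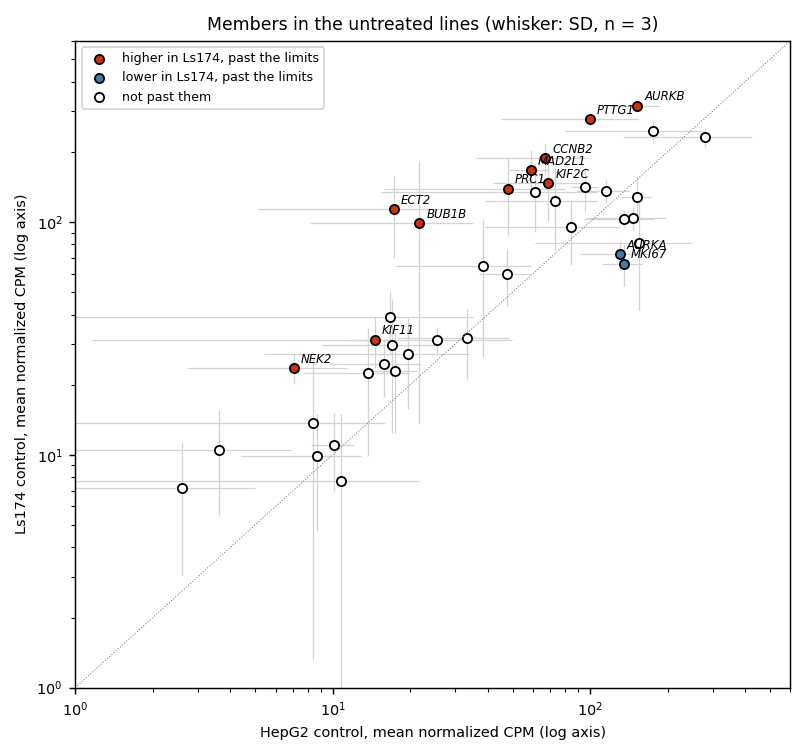
Mean normalized CPM of the 39 members in HepG2 controls (x axis) and Ls174 controls (y axis), on log axes, with SD over 3 libraries as whiskers and equality as the dotted line. Of the 12 coloured members past the unadjusted limits, 10 lie above the line and AURKA and MKI67 below it.

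Genes that work beside the members were taken from lists of the same pathway. Of 42 further mitotic genes tested in HepG2, 11 were called lower, 26.2% against 10.9% of all genes, and 1 higher, against 11.3%. In Ls174 7 of 44 were called lower, 15.9% against 7.85%, and none higher by edgeR, against 4.11%. The 1 gene of them past the adjusted limit in HepG2, against 0.538% of all genes, was DSN1, a subunit of the MIS12 complex that anchors kinetochores, at 45.2, 64.4 and 42.2 CPM in the controls and 16.1, 19.7 and 17.3 CPM with HME, a fold change of -1.51 ± 0.33 (adjusted p = 0.0402). Of the other APC/C subunits 1 of 11 was called lower in HepG2, 9.09% against 10.9% of all genes, and none in Ls174, against 7.85%. In HepG2 6 of the 11 had every HME library below every control, 54.5% against 15.3%, with a median of -0.46 against -0.04. Of the subunits of the DREAM and MuvB complexes, 2 of 10, RBBP4 and TFDP1, were called lower in HepG2, against 10.9% of all genes, and none in Ls174, against 7.85%.

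The inhibitors of cyclin-dependent kinases and the brakes on entry into mitosis went the opposite way in HepG2. Of 13 tested, 8 were called higher, 61.5% against 11.3% of all genes, and 1, CDKN2C, lower, against 10.9%. Past an adjusted p of 0.05 by edgeR were 5, all higher, against 2.77%. WEE1, the kinase that inactivates CDK1, measured 32.6, 19.8 and 26.9 CPM in the controls and 86.5, 74.5 and 79.4 CPM with HME, a fold change of 1.61 ± 0.30 (adjusted p = 0.0213). GADD45A, which interferes with CDK1 and cyclin B, was at 28.1, 3.71 and 30.1 CPM in the controls and 118, 128 and 142 CPM with HME (2.65 ± 0.57, adjusted p = 0.0358). SFN, 14-3-3 sigma, which keeps CDK1 and cyclin B in the cytoplasm, was 3.00 ± 0.55 higher (adjusted p = 0.0196), GADD45B 3.01 ± 0.37 higher (adjusted p = 0.00305) and CDKN2B, an inhibitor of CDK4 and CDK6, 2.98 ± 0.50 higher (adjusted p = 0.0132). CDKN1A, the p53 target p21, stood at 280, 108 and 404 CPM in the controls and 1119, 746 and 897 CPM with HME, at 1.84 ± 0.45 (adjusted p = 0.059), and CDKN1B, p27, was not called (0.51 ± 0.39). For WEE1, GADD45A and CDKN1A the lowest control was control 2, which stood apart in the members, and a low value there raises the fold change. Every treated library of each still lay above every control. Fits of these genes without control 2 are not given here.

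In Ls174, 4 of 13 of these inhibitors and brakes were called higher (CDKN1A, CDKN2B, GADD45A and GADD45B), 30.8% against 4.11% of all genes. CDKN2C was again called lower, against 7.85%. None passed the adjusted limit by edgeR, and an unadjusted p under 0.05 was found in 5 of the 13 and in 1534 of 11319 genes. CDKN1A there was at 25.9, 58.3 and 57.8 CPM in the controls and 86.5, 86.6 and 76.1 CPM with HME (0.80 ± 0.30). Its lowest library was control 1, which stood apart in the members, and a low control raises the fold change. A fit of CDKN1A without control 1 is not given here. WEE1 was not called in Ls174, at 37.6, 49.1 and 42.0 CPM in the controls and 35.9, 39.9 and 30.4 CPM with HME. The difference between the lines was -1.86 ± 0.37 for WEE1 (adjusted p = 0.0339) and -3.84 ± 0.74 for SFN (adjusted p = 0.0311), both by edgeR's interaction term, by which 4 of 14 were called lower, against 7.42% of all genes. Of the genes for the step before DNA synthesis, 3 of 13 were called lower in HepG2, 23.1% against 10.9% of all genes, and 1 higher, against 11.3%, and 1 of 14 was called lower in Ls174, 7.14% against 7.85%. CCND1 and CCNE1, cyclins D1 and E1, were called in neither line (-0.74 ± 0.35 and 0.13 ± 0.41 in HepG2), and E2F1, which starts the S-phase programme, was called lower in HepG2 at -0.74 ± 0.30 (adjusted p = 0.191) and not in Ls174 (-0.51 ± 0.26).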

How the data were processed

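Each of the 12 libraries came with a table of whole-number read counts per exon region, which the authors made by aligning 3′ reads to hg19 (GRCh37) with HISAT2. Per the labels, Bowtie2 and Trimmomatic were also used. Version, strand setting and filters of the counting were not given in the sources used here. Deposited counts were added up over each gene's regions (144910 regions, 57736 genes). Genes were kept by filterByExpr, scaled by TMM and tested with edgeR 4.0.16 (R 4.3.3, quasi-likelihood, Benjamini-Hochberg over all genes tested), separately for HME in each line, for the controls of the lines, and with an interaction term over all 12 libraries. The standard error is the log2 fold change over the square root of F. Call limits (p under 0.05, log2 beyond 0.58) are those of the study's methods, and its results text names a slightly lower fold limit. The study names a binomial test without saying how replicates entered it. A binomial test on summed counts was run here as an alternative, beside DESeq2 1.42.0, other scalings, filters and region choices, a replicate block and leaving out each library.

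The members and the lists of neighbouring genes were chosen with earlier results of these data known. Values in every library are given for members called in a line or past an adjusted p of 0.05, and for CCNB1, CDK1, TOP2A, MKI67, PLK1 and AURKA. Replicate pairs of a group differed by at least 4.44 times the sampling noise (chi-square per degree of freedom), so that none was counted as 1 library. Scripts were tested on simulated data. Floors cover counting error only. The standard errors come from the quasi-likelihood fit and also take in the spread between libraries. For list symbols with 2 gene IDs, the ID with the largest total was used.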

Additional observations from a re-analysis of the deposited data

Results flagged for a closer look

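Members were set apart by a difference of the HME effect between the lines that passed the unadjusted limits of the interaction test. For CDC25B the effect was 1.51 log2 units higher in Ls174 than in HepG2 and for ANAPC15 1.73 higher. For PRC1 the difference was -2.31, and without HepG2 HME 2 it was -0.45. None had an adjusted p under 0.05 by edgeR with all libraries.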

How the results depend on the processing

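The median of the members kept its sign in every analysis of HME in each line and of the controls. Leaving out 1 library gave -0.57 to -0.21 in HepG2, -0.43 to -0.22 in Ls174 and 0.38 to 0.86 between controls, while the median difference of the HME effects ran from -0.15 (without HepG2 control 3) to 0.38. Scaling to library size alone moved the median of all genes from -0.04 to -0.20 in HepG2 and from -0.04 to 0.17 between controls, and that of the members to -0.68 and 0.76. Over the fits that left out libraries, 6 to 15 members were called in HepG2, 0 to 11 in Ls174, 2 to 6 for the interaction and 7 to 20 between controls. In the same fits those past the adjusted limit ran from 0 to 3, 0 to 8, 0 to 1 and 1 to 17. These ranges include the fits without both controls that stood apart, which were added after seeing the data. The binomial test on summed counts, which takes no account of the spread between libraries, called 25 members in HepG2 and 10 in Ls174, and placed 31 and 28 past the adjusted limit. DESeq2 placed 4 members past it in HepG2, 1 for the interaction and 10 between controls, and called 5 for the interaction. Scaling to library size alone gave 3 and upper-quartile scaling 2 past the adjusted limit in HepG2. Keeping genes with at least 1 count gave 4 in HepG2, 1 in Ls174 and 1 for the interaction, and requiring 10 counts in every library gave 1 between controls. With at least 1 count, PRC1, high in HepG2 HME 2 alone, was the only member higher in HepG2 (2.06). It was also the 1 for the interaction (-2.3). One fit of all 12 libraries gave 5 in HepG2 and 11 between controls, and 3 members called in Ls174. Libraries with the same replicate number did not deviate together (correlations of -0.15, 0.07 and -0.12 in HepG2 and -0.0394, 0.0055 and -0.0601 in Ls174). Between controls the correlations were -0.375, -0.313 and 0.11. These values gave no sign that the numbers pair the libraries, but with so few libraries in a group they cannot exclude it. With the replicate block 9, 6, 3 and 9 members were called, and 0, 0, 0 and 1 passed the adjusted limit. These counts are given without the share over all genes and describe only how far the fits differ. The cause of these shifts was not tested. Depth limits the members with few counts most, such as CENPE with 16 and ANAPC15 with 27 counts in a treated group.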
